A study of Mus musculus with 8 samples.

Results

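Transcripts of death receptors and ligands of the tumour necrosis factor (TNF) superfamily were examined in CD8 T cells sorted from tumours of mice labelled Mtdh KO and of wild-type mice. The set holds 8 of the 19673 genes in the deposited table and was chosen by gene name. It comprises the ligands Fasl, Tnf, Tnfsf10 and Ltb, the receptors Fas, Tnfrsf1a and Tnfrsf1b, and the protease Casp8. Tumours were grown from Py8119, a mouse mammary carcinoma line, in hosts labelled Mtdh KO (4 libraries, KO 1 to KO 4) or WT (4 libraries, WT 1 to WT 4), each library being a biological replicate. Live cells positive for CD45, CD3e and CD8 were sorted and their bulk RNA was sequenced. Both groups carried the same tumour line, and the labels give no strain, sex or age, nor the Mtdh status of the tumour cells or the tissues in which Mtdh was deleted. The comparison asks how transcripts differ with the host's Mtdh genotype in cells sorted as CD8 T cells from the tumour. The libraries also held macrophage transcripts.

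As background, TNF superfamily ligands are trimeric proteins that are mostly displayed on the cell surface and bind receptors of a matching family. Receptors with a cytoplasmic death domain, such as Fas and TNF receptor 1, can recruit adaptors that bring Casp8 molecules together and start apoptosis, or can switch on NF-kappaB and survival genes instead. Cytotoxic T cells use Fas ligand beside perforin and granzymes to kill targets, and Fas ligand also removes activated T cells. TNF receptor 2, encoded by Tnfrsf1b, has no death domain and acts as a costimulatory receptor on activated and regulatory T cells.

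None of the 8 genes passed an adjusted p of 0.05 in the test that was run over all genes, where 0.236% of genes did, 0.211% higher and 0.0248% lower in KO. Among the 6 members that were detected above a few fragments in most libraries, the largest differences were higher levels in KO libraries of Tnfrsf1b, Tnfsf10 (which encodes the ligand TRAIL) and Fasl, by 1.58-fold, 1.93-fold and 2.30-fold in the fitted values, while the estimates for Tnf, Tnfrsf1a and Casp8 lay between -0.23 and 0.11 on the log2 scale and Fas (-1.48) and Ltb (-0.74) were close to undetected. At an unadjusted p under 0.05, where 6.70% of all genes stood, 3 of the 8 were found, Tnfrsf1b, Tnfsf10 and Fasl, all higher in KO. The median log2 fold change of the 8 was 0.03, against -0.12 over all genes tested. The sequences just upstream of the Tnfrsf1b, Tnfsf10 and Fasl start sites are shown because these 3 genes had an unadjusted p under 0.05. They are the 250 bases before the RefSeq transcription start, 5′ to 3′ on the gene's own strand, on GRCm38.p6, at chr4:145246871-145247120 (minus strand) for Tnfrsf1b, chr3:27316827-27317076 (plus strand) for Tnfsf10 and chr1:161788496-161788745 (minus strand) for Fasl. Capitals mark matches to a motif.
Tnfrsf1b: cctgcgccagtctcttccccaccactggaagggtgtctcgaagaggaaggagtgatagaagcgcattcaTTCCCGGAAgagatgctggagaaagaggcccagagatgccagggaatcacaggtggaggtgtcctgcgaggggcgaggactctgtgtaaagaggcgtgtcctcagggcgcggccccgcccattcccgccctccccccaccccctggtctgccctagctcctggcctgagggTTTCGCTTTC
Tnfsf10: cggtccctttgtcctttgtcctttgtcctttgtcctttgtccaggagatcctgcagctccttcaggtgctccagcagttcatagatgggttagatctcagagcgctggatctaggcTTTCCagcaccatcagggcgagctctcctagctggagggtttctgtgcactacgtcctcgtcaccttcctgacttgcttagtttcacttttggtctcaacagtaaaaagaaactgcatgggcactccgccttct
Fasl: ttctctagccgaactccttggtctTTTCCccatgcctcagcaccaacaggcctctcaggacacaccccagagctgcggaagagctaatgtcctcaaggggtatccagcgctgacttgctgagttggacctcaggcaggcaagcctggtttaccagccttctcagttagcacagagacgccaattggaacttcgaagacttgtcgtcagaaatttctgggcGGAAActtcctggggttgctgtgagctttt

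Promoter entries were found for 8 of the 8 genes. On both strands, 6 motifs were searched: the interferon-stimulated response element as GAAA, any 2 bases and GAAA, the gamma-activated site as TTCNNNGAA, an NF-kappaB site as GGG, any 2 bases and TTTCC, the AP-1 site as TGANTCA, the NFAT core as GGAAA and the TATA box as TATAAA. The first motif occurred in 2.98% of all 32851 promoter windows of this length, and the others in 7.02%, 1.41%, 6.75%, 55.6% and 12.4%, in the order given. The Tnfrsf1b window held an interferon-stimulated response element match that began 10 bases before the start site and a TTCNNNGAA match that began 181 bases before it. The windows of Tnfsf10 and Fasl matched GGAAA alone, at 134 bases before the start site for Tnfsf10 and at 226 and 30 bases before it for Fasl. Among the other members, TATAAA stood 29 bases before the start site of Tnf, and the NF-kappaB motif stood 87 bases before that of Ltb, where it overlapped a GGAAA match. The Tnf window also held GGAAA at 181, 77 and 54 bases before the start site, and the Ltb window TTCNNNGAA at 172. The Fas window held TGANTCA at 211, GGAAA at 199 and TTCNNNGAA at 93 bases before the start site, the Tnfrsf1a window TTCNNNGAA at 244, and the Casp8 window GGAAA at 78. A match describes letters in this window and not a bound site.

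The values are read counts per gene that the authors divided by a size factor for each library, called normalized counts here. Each library held an estimated 16400000 to 29600000 reads, but 9.09% to 45.0% of moderately expressed genes were undetected in a given library. By Poisson sampling, this share corresponds to 1 cDNA fragment being worth 38.1 to 142 normalized counts in KO libraries and 25.5 to 63.5 in WT libraries, so a value near these rests on about 1 molecule. KO 2 had the highest worth per fragment, and so the fewest fragments by this estimate. Mtdh, the deleted gene, was at 5118, 4622, 2538 and 3341 in KO 1 to KO 4, against 9324, 12745, 6407 and 7974 in WT 1 to WT 4 (limma log2 fold change -1.23 ± 0.25 SE, adjusted p = 0.0400). The groups did not overlap, in the direction that the labels give, and the KO level was 0.426 of the WT level in the fitted values, so Mtdh transcripts remained in the KO libraries. The labels do not give the deleted part of the gene. The adjusted p was 0.0560 without KO 2, 0.0673 without KO 3, 0.193 without KO 4, 0.241 without WT 1 and 0.168 without WT 2. Over all 16120 genes tested, 38 passed an adjusted p of 0.05 in limma, a linear model with moderated variances, 34 of them higher in KO. That count lay between 7 without KO 4 and 70 without WT 4.

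**Figure D1:**
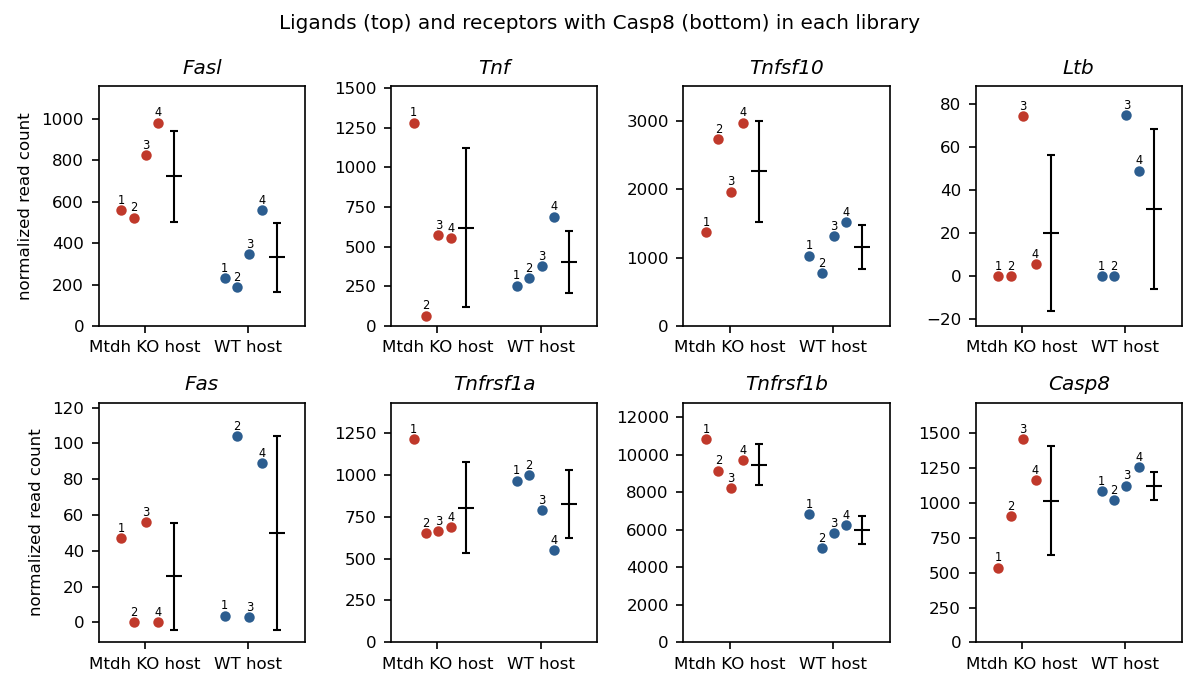
Normalized read count (vertical axis, linear) of the 4 ligands in the upper row and of the 3 receptors and Casp8 in the lower row; each point is a library, numbered by replicate, KO hosts left in red and WT hosts right in blue, and black marks are the mean and SD of 4 libraries. Tnfrsf1b was at 8211 to 10834 in KO, against 5021 to 6828 in WT with no overlap, whereas Fas and Ltb stayed at or under 104 in all 8 libraries.

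Among the ligands, Fasl (ENSMUSG00000000817, chromosome 1, 161608258 to 161616064 of mm39, minus strand), which triggers Fas on target cells, was measured at 558, 523, 825 and 982 normalized counts in KO 1 to KO 4, against 233, 186, 346 and 559 in WT 1 to WT 4. WT 4 lay among the KO values, and the other 3 WT libraries lay below every KO library. The mean was 722 ± 220 in KO libraries, against 331 ± 166 in WT libraries (n = 4 each, SD). The limma estimate of the log2 fold change was 1.20 ± 0.45 (SE; 95% interval 0.27 to 2.13; adjusted p = 0.642), and 356 genes had a smaller p. These values corresponded to 3.67 to 25.8 estimated fragments in KO and 2.94 to 16.7 in WT.

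Tnfsf10 encodes TRAIL, a ligand that many activated lymphocytes display and that interferons induce (ENSMUSG00000039304, chromosome 3, 27371177 to 27396576, plus strand). Its normalized counts were 1371, 2737, 1970 and 2981 in KO 1 to KO 4, against 1030, 773, 1317 and 1516 in WT 1 to WT 4. Only KO 1 lay within the WT range. The mean was 2265 ± 735 in KO libraries, against 1159 ± 326 in WT libraries (n = 4 each, SD), with a log2 fold change in limma of 0.95 ± 0.30 (SE; 95% interval 0.33 to 1.56; adjusted p = 0.388). Its only full death receptor in the mouse, Tnfrsf10b, was at 295, 975, 708 and 401 in KO libraries, against 412, 187, 153 and 176 in WT libraries (limma log2 fold change 1.32 ± 0.54 SE, adjusted p = 0.688). WT 1 lay inside the KO range for Tnfrsf10b, and the other WT libraries lay below it.

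Tnf, the founding ligand of the family (ENSMUSG00000024401, chromosome 17, 35418357 to 35420983, minus strand), had a wide spread among KO libraries. It was at 1283, 65.0, 573 and 555 in KO 1 to KO 4, against 254, 303, 376 and 689 in WT 1 to WT 4. The KO libraries included both the highest and the lowest of the 8 values, and the lowest, in KO 2, was equivalent to 0.456 of a fragment. The mean was 619 ± 501 in KO libraries, against 405 ± 196 in WT libraries (n = 4 each, SD), and the limma estimate of the log2 fold change was 0.11 ± 0.68 (SE; 95% interval -1.31 to 1.52; adjusted p = 0.987). Without KO 2 the log2 fold change was 0.98, and without KO 1 it was -0.45. It was also below 0 without KO 3, KO 4 or WT 1.

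Ltb encodes lymphotoxin beta, which anchors lymphotoxin alpha to the membrane and acts through the receptor Ltbr (ENSMUSG00000024399, chromosome 17, 35413415 to 35415296, plus strand). It lies 3060 bases from Tnf, and Lta follows Tnf after a further 1157 bases. Ltb was listed at 0, 0, 74.0 and 5.53 in KO 1 to KO 4, against 0, 0, 74.7 and 48.9 in WT 1 to WT 4, or at most 2.94 estimated fragments. In each group 2 libraries were at 0, and no difference between groups was detectable at this depth (limma log2 fold change -0.74 ± 2.18 SE, adjusted p = 0.963).

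Among the receptors, Fas, the death receptor for Fas ligand (ENSMUSG00000024778, chromosome 19, 34268066 to 34305172, plus strand), was at 47.0, 0, 55.8 and 0 in KO 1 to KO 4, against 3.72, 104, 2.73 and 89.1 in WT 1 to WT 4. The 2 highest values were both in WT, at no more than 2.67 estimated fragments, and 3 KO libraries and 2 WT libraries held less than 1. The log2 fold change of -1.48 had a 95% interval of -6.10 to 3.13 (limma adjusted p = 0.905), so a difference in Fas was not detectable at this depth.

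Tnfrsf1a encodes TNF receptor 1, the death-domain receptor for TNF (ENSMUSG00000030341, chromosome 6, 125326325 to 125339447, plus strand). It was at 1212, 652, 661 and 688 in KO 1 to KO 4, against 964, 995, 789 and 549 in WT 1 to WT 4. KO 1 was the highest of all and the other 3 KO libraries lay between WT 4 and WT 3. The mean was 803 ± 273 in KO libraries, against 824 ± 205 in WT libraries (n = 4 each, SD), and the limma estimate of the log2 fold change was -0.05 ± 0.34 (SE; 95% interval -0.76 to 0.65; adjusted p = 0.987), with the sign positive in 5 of the 8 fits that left out 1 library.

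Tnfrsf1b, for TNF receptor 2 (ENSMUSG00000028599, chromosome 4, 144940033 to 144973440, minus strand), had the highest level of the 8 genes, with a coefficient of variation of 11.6% in KO and 12.7% in WT. Its normalized counts were 10834, 9149, 8211 and 9702 in KO 1 to KO 4, against 6828, 5021, 5832 and 6262 in WT 1 to WT 4. Every KO library was above every WT library. The mean was 9474 ± 1096 in KO libraries, against 5986 ± 762 in WT libraries (n = 4 each, SD), and the log2 fold change was 0.66 (SE 0.19, 95% interval 0.26 to 1.06). The limma adjusted p was 0.300, with 131 genes at a smaller p, so the difference did not pass over all genes. An exact two-sided permutation test of its mean log2 value over the 70 arrangements of libraries gave p = 0.0286, the smallest that 4 against 4 allows. Any gene whose groups separate takes this value, so it restates the separation. The same permutation test gave p = 0.0571 for Tnfsf10 and p = 0.0857 for Fasl. Tnfrsf1b was the 1 gene of the 8 whose groups did not overlap. Over all genes tested, every KO value lay above every WT value for 2.02%, and below every WT value for 2.09%.

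Casp8 encodes the initiator caspase that Fas and TNF receptor 1 complexes activate (ENSMUSG00000026029, chromosome 1, 58834533 to 58886662, plus strand). It was at 537, 905, 1459 and 1163 in KO 1 to KO 4, against 1085, 1021, 1125 and 1257 in WT 1 to WT 4. The WT libraries sat close together, with an SD of 99.6 on a mean of 1122, and the KO libraries spread to both sides of them, with an SD of 391 on a mean of 1016. The limma estimate of the log2 fold change was -0.23 ± 0.32 (SE; 95% interval -0.90 to 0.43; adjusted p = 0.891), and 0.04 without KO 1. The span of the predicted gene Gm37760 overlaps that of Casp8 in the authors' table. Strand-specific counting is not stated, and whether the 2 share exons or reads was not tested.

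**Figure D2:**
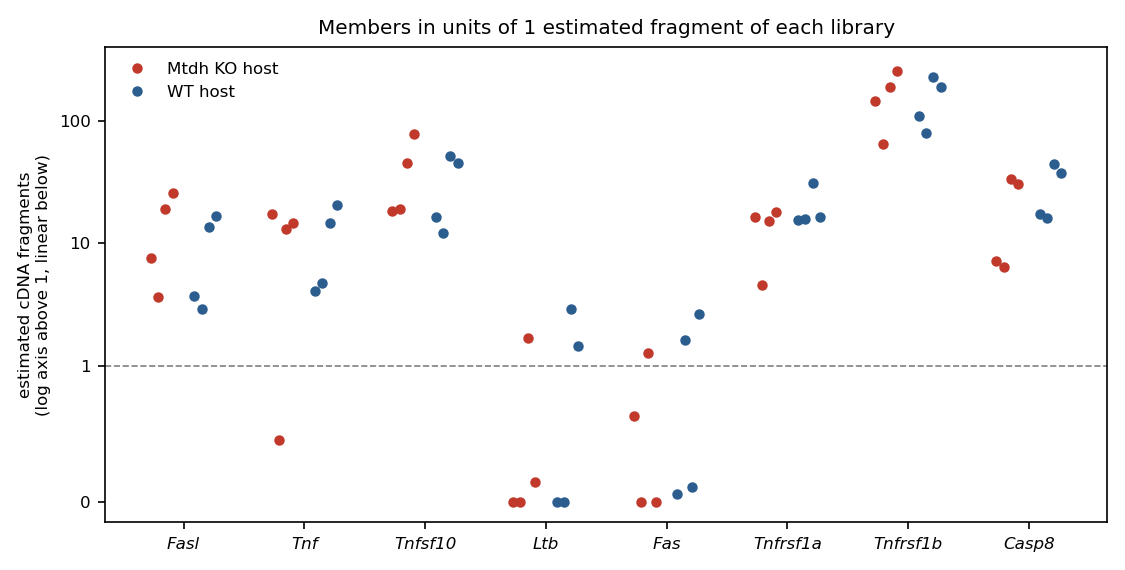
Each member's normalized count divided by the worth of 1 estimated cDNA fragment in the same library (vertical axis, logarithmic above 1 and linear below; dashed line at 1 fragment), KO hosts in red left of WT hosts in blue, 1 point per library. Tnfrsf1b rests on 64.2 to 255 fragments in KO libraries and 79.1 to 229 in WT libraries, while Fas and Ltb reach at most 2.94.

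Because longer transcripts collect more reads, levels were compared between genes per kilobase of annotated exon. On that scale Tnfrsf1b was first in both groups, at 2481 ± 287 normalized counts per kilobase in KO libraries, against 1568 ± 199 in WT libraries (n = 4 each, SD). In KO libraries Tnfsf10 (430 ± 140), Tnf (378 ± 306), Fasl (373 ± 113), Tnfrsf1a (372 ± 127) and Casp8 (351 ± 135) followed, and these 5 neighbours lay within each other's SD. In WT libraries Casp8 (388 ± 34.4) and Tnfrsf1a (382 ± 95) were within each other's SD, as were Tnf (247 ± 119), Tnfsf10 (220 ± 61.8) and Fasl (171 ± 85.8). Fas was at 14.3 ± 16.7 per kilobase in KO and 27.8 ± 30.2 in WT, and Ltb at 16.9 ± 30.7 in KO and 26.2 ± 31.6 in WT, so neither could be placed above the other.

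Ratios within a library do not depend on how that library was scaled, apart from the 1 added to each value, and 9 pairs of genes were compared by exact two-sided permutation, with Benjamini-Hochberg adjustment over the 9 pairs. None passed 0.05 after adjustment, and the smallest raw p that the design allows is 0.0286. A single pair at that raw p could not pass the adjustment over 9 pairs, so no conclusion is drawn from the absence of a pass. The log2 ratio of Fasl to Cd3e, which encodes a subunit of the T cell receptor complex, averaged -2.61 ± 0.38 in KO libraries, against -2.50 ± 0.32 in WT libraries (n = 4 each, SD). The KO minus WT difference was -0.11 (exact permutation p = 0.8286, adjusted p = 0.914), and the ranges overlapped, from -2.94 to -2.21 in KO and from -2.97 to -2.28 in WT. Cd3e itself was at 2587, 4002, 6339 and 5032 in KO libraries, against 1829, 909, 1925 and 2752 in WT libraries (limma log2 fold change 1.31 ± 0.31 SE, adjusted p = 0.116). Other CD8 T cell markers did not all move as Cd3e did. Trac was at 1028, 1302, 2730 and 1631 in KO 1 to KO 4, against 1843, 871, 1744 and 2091 in WT 1 to WT 4. Cd3d was at 26.2, 3.30, 321 and 155 in KO, against 199, 1.89, 255 and 231 in WT, while Cd8a was higher in KO without overlap. Ratios of Fasl to Trac, Cd3d or Cd8a were not tested. In bulk RNA, fewer T cells and less RNA per T cell cannot be told apart.

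The log2 ratio of Fasl to Prf1, the gene of the pore protein perforin, was -0.95, -1.57, -0.75 and -0.92 in KO 1 to KO 4, against 1.53, 0.80, 0.40 and 0.73 in WT 1 to WT 4. All KO ratios were below 0 and all WT ratios were above 0, so the groups did not overlap. The difference was -1.91 (exact permutation p = 0.0286, adjusted p = 0.257). Prf1 was at 1077 to 1857 normalized counts in KO and at 80.0 to 337 in WT, a log2 difference of 3.11 ± 0.47 SE (limma adjusted p = 0.00466; 0.0575 without KO 4), larger than that of Fasl. The log2 ratio of Tnfrsf1b to Tnfrsf1a averaged 3.60 ± 0.31 in KO, against 2.89 ± 0.48 in WT (difference 0.72, n = 4 each, exact permutation p = 0.0571, adjusted p = 0.257), with WT 4 alone reaching into the KO range.

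For Casp8 and Cflar, which encodes the inhibitor cFLIP that competes with Casp8 for death receptor complexes, the log2 ratio averaged -2.11 ± 0.64 in KO and -1.61 ± 0.19 in WT (difference -0.51, n = 4 each, exact permutation p = 0.257, adjusted p = 0.579). The low KO ratios were those of KO 1 (-2.85) and KO 2 (-2.43), while KO 3 and KO 4 lay within the WT range of -1.85 to -1.37. Tnf relative to Tnfrsf1b differed by -0.56 (exact permutation p = 0.771, adjusted p = 0.914), Tnf relative to Tnfrsf1a by 0.16 (p = 0.914), and Tnfsf10 relative to Tnfrsf10b by -0.37 (p = 0.514). The ratios of Fasl to Fas (difference 2.69, exact permutation p = 0.229) and of Ltb to Ltbr (difference -0.73, exact permutation p = 0.714) rest on denominators or numerators of few fragments.

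**Figure D3:**
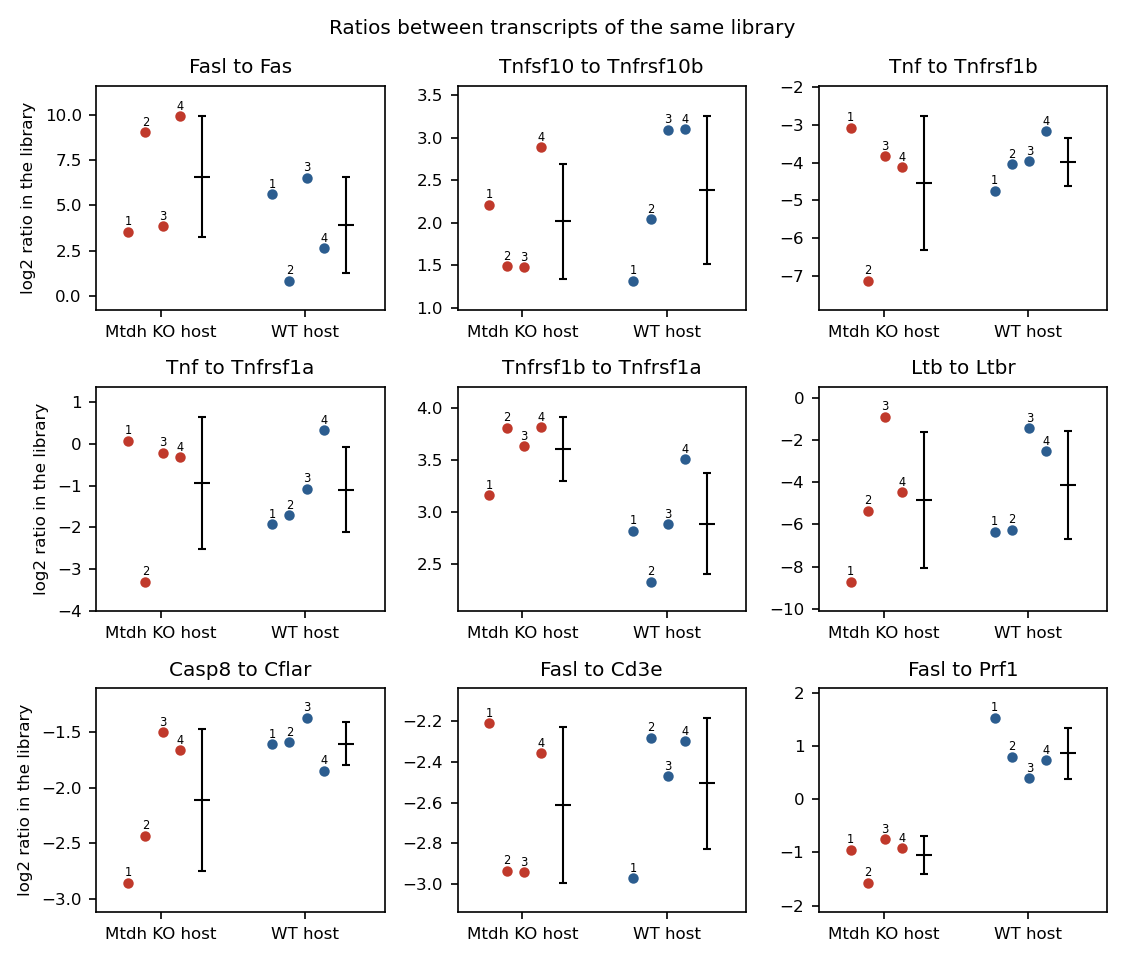
Log2 ratio of normalized counts, each with 1 added, for 9 pairs of genes (vertical axes differ); points are libraries numbered by replicate, KO hosts left in red and WT hosts right in blue, with mean and SD of 4 libraries in black. Fasl to Cd3e overlaps between groups, and Fasl to Prf1 lies between -1.57 and -0.75 in KO and between 0.40 and 1.53 in WT.

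Markers of other cell types were also measured in these sorted libraries, and some moved with the group. The summed level of 12 CD8 T cell markers was 21759 to 50480 normalized counts in KO and 8326 to 29256 in WT, with the lowest value in WT 2. The T cell genes that defined the sort were present in every library, Cd8a at 7561 to 13355 in KO, against 1565 to 6545 in WT. Summed macrophage and monocyte markers, 16 genes, were at 118476 to 264386 in KO, against 197830 to 309051 in WT. Lyz2 alone made up 75242 to 186897 of this in KO, against 130076 to 211543 in WT. Single genes did not all move alike. Mrc1 was at 6982 to 12364 in KO, against 15259 to 19912 in WT without overlap. Ccr2 was at 22316, 24759, 8126 and 18392 in KO 1 to KO 4, against 13382 to 14628 in WT. In every WT library Mrc1 was above Cd8a. Macrophages express Tnf, both TNF receptors and Casp8 as well. The 8 dendritic cell markers summed to 2269 to 3485 in KO, against 1083 to 1650 in WT without overlap. Of single genes in that list, Ccr7 separated the groups, at 668 to 2244 in KO, against 261 to 615 in WT. Itgax overlapped, at 452 to 1092 in KO, against 284 to 530 in WT. Flt3 and Clec9a were at 0 in KO 2, and Batf3 was highest in WT 2, at 98.4. The 8 fibroblast markers summed to 3902 to 22404 in KO, against 8760 to 21216 in WT. The 6 markers of CD4 and regulatory T cells summed to 6033 to 8581 in KO, against 2164 to 3569 in WT, also without overlap. The largest part was Ikzf2, which encodes the factor Helios, at 3795 to 6052 in KO, against 1639 to 2802 in WT. Ctla4 was at 1330 to 1764 in KO, against 124 to 627 in WT, and Il2ra at 762 to 1282 in KO, against 24.6 to 123 in WT, so all 3 separated the groups. Cd4 was at 11 to 122 in KO, against 0 to 169 in WT, and Foxp3, the defining factor of regulatory T cells, was at 0 in 3 of 4 KO and 3 of 4 WT libraries. Cd40lg was at 0 to 16.6 in KO, against 0 to 46.4 in WT, so Cd4, Foxp3 and Cd40lg did not separate the groups. Which cells in the sort the Ikzf2, Ctla4, Il2ra and Ccr7 transcripts came from was not tested. With the mean level of Cd3d, Cd3e, Cd3g, Cd8a and Cd8b1 as a covariate, the log2 fold change was 0.93 for Fasl (limma adjusted p = 0.670), 0.78 for Tnfsf10 (0.605) and 0.64 for Tnfrsf1b (0.339). That covariate, in log2, was 9.59, 9.86, 11.5 and 11.1 in KO 1 to KO 4, against 10.2, 7.89, 10.6 and 10.8 in WT 1 to WT 4. It takes in Cd3d, which was under 1 fragment in KO 1, KO 2 and WT 2, so it may not follow T cell RNA. The part of macrophage, dendritic cell or other T cell RNA in the values of the members was not tested.

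**Figure D4:**
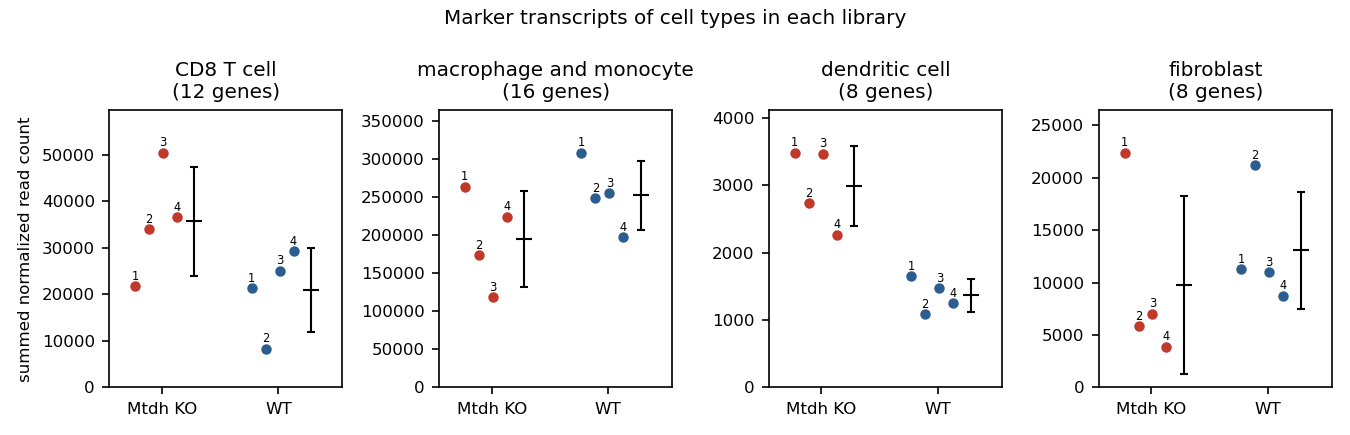
Summed normalized read count of marker genes of 4 cell types (vertical axes from 0, not shared); points are libraries numbered by replicate, KO hosts left in red and WT hosts right in blue, with mean and SD in black. Sums of CD8 T cell and dendritic cell markers were higher in most KO libraries. The dendritic sum was 2269 to 3485 in KO, against 1083 to 1650 in WT, and Ccr7 was the gene of that list that separated the groups. Macrophage markers reached their lowest sum, 118476, in KO 3.

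For each gene, the 2 genes with the most similar profile over the 8 libraries were sought among 5264 named genes with a mean of at least 500, by the root mean square difference of log2 values after each gene's mean was removed. Fasl was close to Klrd1, which encodes the receptor subunit CD94 of NK and activated CD8 T cells (0.24), against a spread of 0.78 of Fasl about its own mean. Klrd1 was at 2991 to 4689 normalized counts in KO and 816 to 2920 in WT. Tnfsf10 was nearest to Gvin2 (0.21) and Ifi47 (0.23), a gene of interferon-inducible GTPases, against a spread of 0.62. Tnfrsf1b was nearest to Osgin2 (0.12) and Ms4a4c (0.13) against 0.37, Tnfrsf1a to Lrrk1 (0.14) and Fbxw11 (0.16) against 0.36, and Casp8 to Hacd3 (0.11) and Arid1a (0.14) against 0.40. Tnf was nearest to Tcn2 (0.49) and Cript (0.52) against 1.19. For Ltb (Rpl9-ps4, 1.91, and Als2cl, 1.97) and Fas (Col6a3, 1.9, and Col12a1, 1.96) the nearest genes were far away. Among the members, Fasl and Tnfsf10 were the most alike pair, at 0.39.

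Other genes of the pathway were counted from 6 lists. Of 14 further TNF superfamily ligands, 11 were tested and none passed in either direction, with a median log2 fold change of -0.05, against -0.12 over all genes tested. That median lay between -0.83 and 1.11 when 1 library was left out. The 2 with the smallest p were Tnfsf11, which encodes RANKL, and Tnfsf4, which encodes OX40L. Tnfsf11 was at 607, 630, 217 and 339 in KO libraries, against 1.86, 1.89, 29.2 and 92.2 in WT libraries (limma log2 fold change 5.05 ± 1.39 SE, adjusted p = 0.237). Every KO value was above every WT value, and in 2 WT libraries the value was under 1 fragment, so the size of the ratio is not well determined. Tnfsf4 was at 784, 880, 191 and 470 in KO, against 86.5, 33.1, 46.5 and 295 in WT (2.64, SE 0.79, limma adjusted p = 0.331). The most abundant, Tnfsf8 (CD30 ligand), differed by -0.63 ± 0.43 (log2, SE; adjusted p = 0.773 in limma), and by -0.17 without KO 1.

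Of 25 further TNF receptor superfamily genes, 19 were tested, and 1 passed, Tnfrsf9 (the costimulatory receptor 4-1BB), which was higher in KO. Tnfrsf9 was at 1923, 956, 1121 and 1920 in KO, against 160, 220, 304 and 695 in WT (limma log2 fold change 2.26 ± 0.43 SE, adjusted p = 0.0277). Its groups did not overlap. The call ended without KO 1 (0.109), KO 4 (0.191), WT 1 (0.151), WT 2 (0.0824) or WT 3 (0.0551), and with the T cell covariate (0.0594), a pseudocount of 0.1 (0.0529) or a minimum mean of 50 (0.0775). Tnfrsf4, which encodes OX40, was at 109, 192, 160 and 121 in KO, against 0, 0, 0 and 26 in WT (limma adjusted p = 0.477), all 4 WT values being under 1 fragment. The most abundant of the list, Tnfrsf26, differed by 0.45 ± 0.26 (log2, SE; adjusted p = 0.770 in limma). Its reads may be shared with its neighbours Tnfrsf22 and Tnfrsf23, which was not tested. The median of the list was -0.32, and 0.25 without KO 2. Of its genes, 7 of 19 were positive, beside 6992 of 16120 over all genes tested.

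Among 30 genes of death-receptor signalling and caspases, all were tested and none passed, with a median of 0.10. Positive were 18 of 30, beside 6992 of 16120 over all genes tested. Tnfaip3, which encodes the ubiquitin-editing enzyme A20 that restrains TNF signalling, was the most abundant and had the smallest p. It was at 15630, 21408, 27796 and 20648 in KO, against 9050, 10774, 9743 and 14529 in WT (limma log2 fold change 0.95 ± 0.22 SE, adjusted p = 0.0922). The groups did not overlap, and the gene passed in 6 of the 21 alternative settings, such as a pseudocount of 10 (0.0456) or the omission of WT 4 (0.0258). Birc3, which encodes the inhibitor of apoptosis cIAP2, was at 4932, 5851, 3304 and 4748 in KO, against 2113, 3148, 2312 and 3226 in WT (0.80, SE 0.23, limma adjusted p = 0.310), again without overlap.

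The 24 genes of NF-kappaB signalling and TNF responses were all tested. None passed, 16 were positive, beside 6992 of 16120 over all genes tested, and the median was 0.29. Rel, the c-Rel subunit of lymphocytes, was at 11039, 15615, 7273 and 8073 in KO, against 2970, 5478, 2981 and 5961 in WT (limma log2 fold change 1.28 ± 0.27 SE, adjusted p = 0.0527), and all KO values exceeded all WT values. It passed in 9 of the 21 alternative settings, with the lowest adjusted p of 0.00720 at a pseudocount of 50. Tnfaip2 differed by 1.07 ± 0.28 (log2, SE; limma adjusted p = 0.201), and Vcam1, the most abundant, by -0.09 ± 0.22 (0.08 without WT 2, and also above 0 with sample weights or the T cell covariate). For genes that shed or turn over TNF ligands, 9 in all, none passed and the median was -0.01. The protease gene Adam10 differed by 0.04 ± 0.20 (log2, SE) and was below 0 with quantile normalization (-0.0014) or scaling without small RNAs (-0.01). Rhbdf1 differed by -2.30 ± 1.28 (log2, SE; limma adjusted p = 0.770), with 2 KO libraries under 1 fragment. Sppl2b differed by -2.02 ± 1.38 (log2, SE; limma adjusted p = 0.773), and by 0.01 without KO 2, where it was at 0.

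None of the 15 transcription factors known to act on Fasl passed, and the median was 0.24. Of the 15, 10 were positive, beside 6992 of 16120 over all genes tested. Stat3 differed by 0.59 ± 0.21 (log2, SE; adjusted p = 0.591 in limma). Every KO value of Stat3, at 3819 to 4833, was above every WT value, at 2318 to 3604. Egr1, the most abundant, differed by -0.45 ± 0.22 (log2, SE; limma adjusted p = 0.742).

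**Figure D5:**
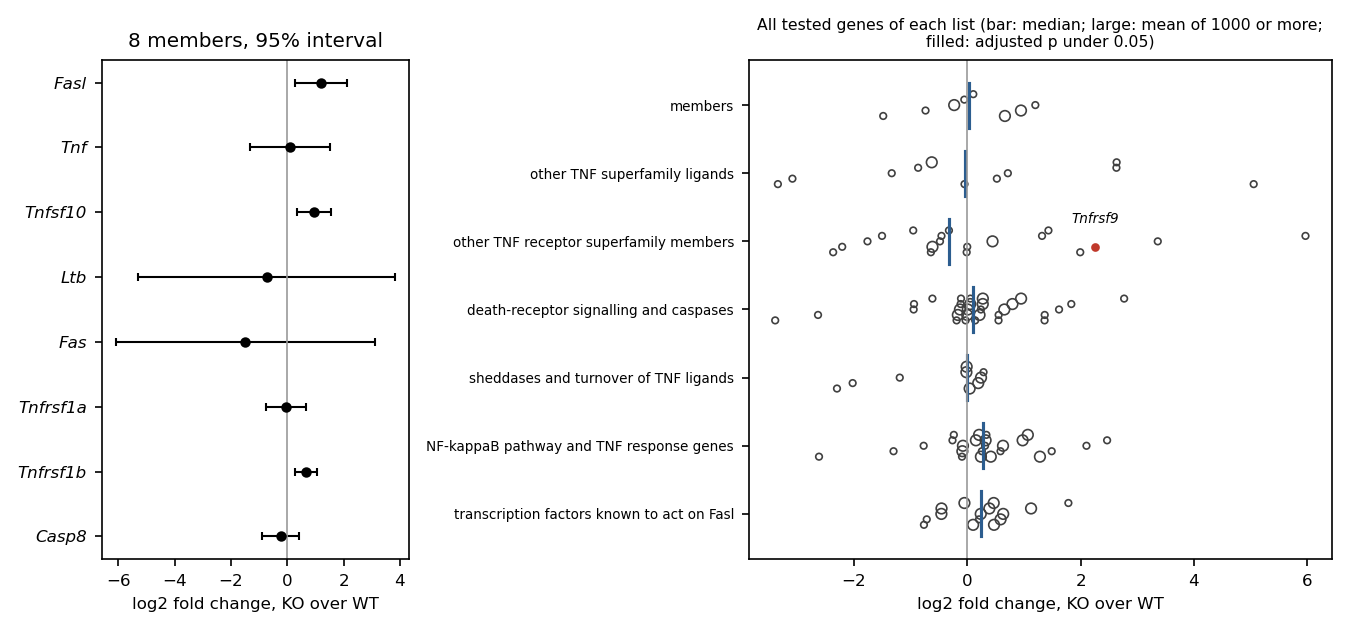
Left, log2 fold change of KO over WT for the 8 members with 95% intervals from limma. Right, log2 fold change of every tested gene of the 8 members and the 6 pathway lists, with the list median as a blue bar, large symbols for a mean over all libraries of 1000 or more and filled symbols for an adjusted p under 0.05; Tnfrsf9, at 2.26, is the 1 filled symbol, and the members' intervals range from -6.10 to 3.81.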

How the data were processed

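Signal values were deposited for each gene in each library. According to the deposited table's name they are read counts after scaling by the authors with DESeq2 size factors. Tools and build given in the submitters' processing notes, with no roles, are STAR 2.7.8a, Partek, DESeq2 and mm39. Per the labels' protocols, ribosomal RNA was removed before PrepX libraries were made. Of the values of up to 500 reads, 81.7% to 88.1% per library lay within 0.02 of a whole multiple of 1 read, so reads could not be recovered and count models were not applied.

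After log2(value + 1), KO was set against WT in limma 3.58.1 under R 4.3.3 (lmFit, eBayes with trend, no covariate) for the 16120 genes averaging 10 or more. Tests were two-sided, with Benjamini-Hochberg adjustment over all of them and a threshold of 0.05; fold changes of low genes on this scale depend on the added 1 and can lie above or below the ratio of the group means. The worth of a fragment was the value at which Poisson sampling would leave undetected (under 3 reads) the observed 9.09% to 45.0% of genes that averaged 20 to 500 elsewhere. Exon lengths were the union of GENCODE M21 basic exons, and promoters came from RefSeq. The members, lists and tests were chosen with earlier results of these data known. Named genes were the members, Mtdh, ratio partners, nearest profiles and, in each list, the passing genes, the 2 with the smallest p and the most abundant one. Listed genes with no row were not analysed here. A gene that this rule would name is not reported here. Alternatives changed the pseudocount, minimum mean, scaling, variance model and libraries. Same-numbered KO and WT libraries did not deviate together (correlations 0.0162 to 0.0757).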

Additional observations from a re-analysis of the deposited data

Results flagged for a closer look

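In 5 of the 66 groups of 4 libraries that were examined, over 33 named genes, 1 library stood far from the other 3 by more than Dixon's 95% critical value for the gap over the group's whole range. Chance flags about 1 in 20 groups. Tnfrsf1a in KO was set apart by KO 1, at 1212 against 652 to 688 in the other KO libraries (gap 0.936 of the range). KO 1 also held the highest fibroblast marker sum of the 8 libraries, at 22404. WT 2 was close to that sum, at 21216, and its Tnfrsf1a was at 995, beside 964 in WT 1. A link between fibroblast RNA and Tnfrsf1a was not tested. Ltb in KO was set apart by KO 3, at 74.0 against 0 to 5.53 (0.925), a value of 1.70 estimated fragments. Among the partner genes, Tnfrsf10b in WT was highest in WT 1, at 412 against 153 to 187 (0.868). Tnfrsf4 in WT was at 26 in WT 4 and at 0 in the other 3 (1.0), and Cd8a in WT was lowest in WT 2, at 1565 against 5712 to 6545 (0.833).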

How the results depend on the processing

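None of the 8 members passed 0.05 in any of the 166 values computed under the 21 alternative settings (pseudocount, minimum mean, scaling, replicate block, sample weights, robust hyperparameters, T cell covariate and omission of each library), and the lowest adjusted p was 0.0873, for Tnfsf10 with sample weights. Fasl kept a positive log2 fold change (0.93 to 1.26, and 0.97 to 1.5 when a library was left out), as did Tnfsf10 (0.78 to 0.96, and 0.77 to 1.17) and Tnfrsf1b (0.58 to 0.66, and 0.58 to 0.73). The T cell covariate turned Tnf to -0.0687 and Tnfrsf1a to 0.094. Leaving out 1 library gave -0.45 to 0.98 for Tnf, -0.27 to 0.0505 for Tnfrsf1a, -2.07 to 0.35 for Ltb, -2.48 to -0.53 for Fas and -0.44 to 0.0444 for Casp8. It gave ratio differences of -0.18 to 0.95 for Tnf to Tnfrsf1a, -1.05 to 0.30 for Tnf to Tnfrsf1b, -2.05 to 0.56 for Ltb to Ltbr, -0.73 to -0.13 for Tnfsf10 to Tnfrsf10b, -0.71 to -0.26 for Casp8 to Cflar and -0.26 to 0.0049 for Fasl to Cd3e.

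Over all genes, 38 calls became 63 and 85 with pseudocounts of 10 and 50, 15 with a minimum mean of 50, 112 with sample weights, and 7 to 70 when a library was left out. With the replicate number as a block, 0 genes passed and 1101 had an unadjusted p under 0.05. Libraries with the same number were not paired by the labels or by their deviations, and under the block Prf1 (adjusted p = 0.0513), Tnfrsf9 (0.108) and Mtdh (-1.23, 0.0627) no longer passed. Mtdh also missed the threshold with a pseudocount of 0.1 (-1.23, 0.0740) and a minimum mean of 50 (-1.23, 0.0945), and lay between -1.38 and -1.04 when a library was left out. Among ligands, 1 gene passed with a pseudocount of 50. Among receptors, 0 passed with a pseudocount of 0.1, a minimum mean of 50, the replicate block or the T cell covariate, and 0 to 1 when a library was left out, with medians of -0.52 to 0.25. In death signalling, 1 passed with a pseudocount of 10 or 50, no minimum, sample weights or robust hyperparameters, and 0 to 1 when a library was left out. In the NF-kappaB list, 1 passed with a pseudocount of 10 or 50, no minimum, quantile normalization or robust hyperparameters, 2 with sample weights or the T cell covariate, and 0 to 2 when a library was left out. Among factors acting on Fasl, 1 passed with a pseudocount of 50 or sample weights and 0 to 1 when a library was left out, with medians of 0.14 to 0.39. Of single genes, Adam10 turned to -0.0014 with quantile normalization and -0.0102 without small RNAs (-0.0491 to 0.20 when a library was left out), and Vcam1 to 0.0606 with sample weights and 0.0387 with the covariate (-0.21 to 0.0843). Ltbr turned to 0.008 and 0.0428 with pseudocounts of 10 and 50 and 0.50 with quantile normalization (-0.55 to 0.57), and Sppl2b lay between -2.82 and 0.0123. The causes of these changes were not tested. Fas and Ltb reached at most 2.94 estimated fragments in any library, which limits what can be detected for them.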

Other observations

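The 3 haemoglobin genes among the red blood cell markers summed to 0 to 1.30 normalized counts in KO libraries and to 101 to 210 in WT libraries, with no overlap. The lowest WT sum was in WT 2, where 1 estimated fragment was worth 63.5, and 1 fragment was worth 142 in KO 2. The separation therefore rests on few fragments in some libraries. B and plasma cell markers summed to 299 to 1207 in KO, against 124 to 379 in WT. Tnfrsf18, the receptor GITR of activated and regulatory T cells, had a log2 fold change of 3.36 (limma adjusted p = 0.739), and was named after its values were seen. It was at 77.7, 212, 226 and 183 in KO 1 to KO 4, against 5.58, 0.946, 76.6 and 62.3 in WT 1 to WT 4. Every KO value was above every WT value, as for 2.02% of all genes tested. In 2 WT libraries the value was under 1 fragment, so the size of the ratio is not well determined.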
